A study of Mus musculus with 16 samples.

Results

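Whole inguinal mammary glands of mice exposed to both a high fat diet and metformin were compared, by RNA sequencing, with glands exposed to neither. The comparison takes 8 of the 16 libraries of the study, chosen by their descriptions alone: 4 described as HFD+Met and 4 described as Control. The 4 HFD and 4 Met libraries supplied the single exposures, whose changes were added and set against the change in the combination. HFD+Met glands had the diet HFD with metformin, HFD glands the diet HFD with the control treatment, Met glands the diet NCD with metformin, and Control glands the diet NCD with the control treatment. All 4 groups carry the age label of postnatal day 16, and the title of the study places them in mid-lactation. Whether that age is the dam's or counts days since the birth of the litter is not given in the sources used here, and neither are the meaning of NCD, the strain, the dose or the length of exposure. Nothing in the labels states that the 4 libraries of a group are 4 separate animals, and every p-value then refers to the spread between libraries, which may be technical.

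In lactation the mammary epithelium secretes caseins and whey proteins, makes fatty acids and lactose from glucose, and takes up dietary fatty acids from the blood. Metformin lowers blood glucose, and is known to act on complex I of the mitochondrial respiratory chain and on the energy sensor AMPK. A diet rich in fat supplies preformed fatty acids and is known to lower fatty acid synthesis in the lactating gland. Where each exposure multiplies a transcript's level by its own factor, the log2 change in the combination equals the sum of the single log2 changes, and the difference between the combined change and that sum is called the departure here.

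Library totals over genes were 14508606 to 31967246 estimated counts in HFD+Met, 8649316 to 39075290 in HFD, 25473962 to 39156617 in Met and 28722179 to 31732115 in Control. Milk protein transcripts took 74.6 ± 1.85% of the counts in HFD+Met and 72.2 ± 1.2% in Control, and transcripts of the mitochondrial genome 2.8 ± 0.188% in HFD+Met and 2.39 ± 0.231% in Control (SD, n = 4 each). Summed luminal epithelial markers (18 genes) ran from 694 to 808 CPM (counts scaled by TMM library size) in HFD+Met and from 660 to 739 CPM in Control, and Krt18 was present in every library. Library Control 3 stood apart in markers of other tissue. Its 18 skeletal muscle markers summed to 4951 CPM, against 189.7 CPM in HFD+Met 1, which was also high, 4.25 to 6.29 CPM in the other HFD+Met libraries and 5.01 to 30.99 CPM in the other Control libraries. Its 22 adipocyte markers summed to 2741 CPM, against 1375 to 2174 CPM in HFD+Met and 1312 to 1448 CPM in the other Control libraries. In whole tissue, fewer cells of a type and less RNA per cell cannot be told apart.

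Genes that were lower with both exposures included a secreted proline-rich protein, a xenobiotic-metabolising cytochrome, a glutathione transferase and several secreted proteins known from involution and acute-phase responses. Prol1 encodes a secreted proline-rich protein. It had 3.85, 0.804, 0.984 and 0.800 CPM in the HFD+Met libraries and 124, 57.9, 130.3 and 228 CPM in the Control libraries. The groups did not overlap, and the lowest Control library lay far above the highest HFD+Met library. The log2 fold change was -6.57 ± 0.77 (SE), with an adjusted p of 0.000783 (edgeR quasi-likelihood test, Benjamini-Hochberg adjustment over all genes). Prol1 (ENSMUSG00000064156.8) lies on chromosome 5 from 88317312 to 88328814 (GRCm38).

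Cyp1a1, a cytochrome P450 of xenobiotic metabolism, is a known target of the aryl hydrocarbon receptor, which binds DNA at a core of 5 bases, GCGTG. Cyp1a1 had 0.308, 0.0965, 0 and 0.0727 CPM in HFD+Met and 2.42, 0.878, 1.90 and 2.12 CPM in Control. The groups did not overlap, and HFD+Met 3 had no count, which at its depth allows a level of up to 0.112 CPM. Over the group, HFD+Met held 9 counts against 242 in Control, a depth-adjusted ratio of 4.41% (95% exact interval 1.99 to 8.51%, counting error only). The fitted log2 fold change was -4.15 ± 0.57 (SE, adjusted p = 0.00266, edgeR). The promoter window of RefSeq on GRCm38.p6, from 250 bases before to 50 bases after the gene's start (chr9:57697363-57697662, plus strand), is shown because this receptor's core occurs in it, in capitals, 54 bases before the start.
Cyp1a1: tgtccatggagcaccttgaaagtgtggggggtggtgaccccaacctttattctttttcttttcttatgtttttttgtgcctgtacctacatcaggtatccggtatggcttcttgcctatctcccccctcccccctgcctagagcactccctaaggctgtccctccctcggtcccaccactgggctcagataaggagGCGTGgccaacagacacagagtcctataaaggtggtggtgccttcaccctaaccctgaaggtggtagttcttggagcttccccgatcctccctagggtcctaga
The core, searched on both strands, occurs in 32.4% of 32817 such windows. Ahr, the receptor itself, had 0.05 and Nqo1, a quinone reductase, -0.17 on the log2 scale, neither called, and Cyp1a1 was the 1 gene called of 5 tested genes of that list, where 0.672% of all tested genes were called.

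Glutathione and haem enzymes that the factor NRF2 is known to induce formed a second group. Gsta3, a glutathione transferase whose close relatives can share its reads, had 3.38, 1.61, 2.82 and 8.76 CPM in HFD+Met and 34.4, 38.4, 28.8 and 42.2 CPM in Control. Its groups were far apart, with a log2 fold change of -3.10 ± 0.45 (SE, adjusted p = 0.0049, edgeR). Hmox1, the haem oxygenase that degrades haem, had 1.92, 2.03, 1.21 and 2.25 CPM in HFD+Met and 5.57, 3.90, 4.54 and 2.98 CPM in Control. Gclm, the modifier subunit of the enzyme that starts glutathione synthesis, had 16.5, 14.2, 14.7 and 13.8 CPM in HFD+Met and 21.1, 18.9, 17.97 and 21.7 CPM in Control. Neither gene's groups overlapped, and the log2 fold changes were -1.19 ± 0.25 for Hmox1 and -0.43 ± 0.09 for Gclm (SE, adjusted p = 0.0406 each, edgeR). Gpx1, the selenium-containing glutathione peroxidase of the same list, went the other way, with 0.55 ± 0.11 (SE, adjusted p = 0.0315, edgeR). So did Gstt1, another glutathione transferase gene, with 0.81 ± 0.18 (SE, adjusted p = 0.0447, edgeR). Of 24 alternatives, the call was kept in 24 for Gsta3, 14 for Hmox1, 10 for Gclm, 16 for Gpx1 and 7 for Gstt1. NRF2 binds the antioxidant response element, whose core is searched here as TGACNNNGC. Promoter windows of Gsta3 (chr1:21240335-21240634, plus strand) and Gclm (chr3:122245307-122245606, plus strand) are shown because each holds 1 match, in capitals, starting 121 bases before the start in Gsta3 and, read from the opposite strand, 134 bases before it in Gclm.
Gsta3: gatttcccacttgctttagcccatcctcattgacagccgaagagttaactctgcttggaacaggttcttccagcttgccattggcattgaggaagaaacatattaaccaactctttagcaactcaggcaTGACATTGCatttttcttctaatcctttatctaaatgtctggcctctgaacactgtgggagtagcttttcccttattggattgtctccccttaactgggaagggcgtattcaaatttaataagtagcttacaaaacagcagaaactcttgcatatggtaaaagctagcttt
Gclm: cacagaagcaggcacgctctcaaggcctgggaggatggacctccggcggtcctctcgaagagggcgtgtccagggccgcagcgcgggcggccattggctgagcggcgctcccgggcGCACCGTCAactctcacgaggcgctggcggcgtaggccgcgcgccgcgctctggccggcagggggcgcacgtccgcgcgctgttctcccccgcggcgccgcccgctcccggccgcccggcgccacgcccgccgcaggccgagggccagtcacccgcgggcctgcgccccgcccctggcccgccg
Either strand of 12.4% of the 32817 windows holds a match, which is a match of letters and not a site.

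In the list of involution and STAT3 targets, 3 of 28 tested genes fell, where 0.352% of all tested genes did, and 7 of the 28 had positive values. Chil1, a secreted chitinase-like glycoprotein, had 0.923, 0.868, 0.671 and 0.800 CPM in HFD+Met and 6.61, 5.20, 5.05 and 3.97 CPM in Control. All HFD+Met libraries lay well below all Control libraries, with a log2 fold change of -2.68 ± 0.32 (SE, adjusted p = 0.000783, edgeR). Lrg1, a secreted leucine-rich glycoprotein of the acute-phase response, had 4.77, 2.19, 2.42 and 3.02 CPM in HFD+Met and 9.15, 9.27, 10.8 and 17.7 CPM in Control (-1.96 ± 0.34 SE, adjusted p = 0.0186, edgeR). Lcn2, lipocalin 2, which binds iron-carrying siderophores, had 279, 179, 174 and 336 CPM in HFD+Met and 657, 611, 603 and 739 CPM in Control (-1.43 ± 0.29 SE, adjusted p = 0.0329, edgeR). In both genes all HFD+Met libraries lay below all Control libraries. Orm2, an acute-phase orosomucoid, had -2.45 ± 0.55 and narrowly missed the threshold (SE, adjusted p = 0.0503, edgeR).

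Further genes that fell encode membrane and lipid proteins. Clca3a2, of the family of calcium-activated chloride channel regulators, had 12.1, 7.98, 18.7 and 19.5 CPM in HFD+Met and 74.8, 80.1, 71.9 and 117 CPM in Control, a log2 fold change of -2.56 ± 0.37 (SE, adjusted p = 0.0049, edgeR), and its relative Clca2 fell by 1.49 on that scale. Agps, a peroxisomal enzyme of ether lipid synthesis, had 7.08, 8.07, 9.57 and 8.07 CPM in HFD+Met and 19.02, 20.6, 36.1 and 24.3 CPM in Control (-1.60 ± 0.21 SE, adjusted p = 0.00266, edgeR). Gsdma, a pore-forming gasdermin, had 0.923, 0.933, 0.313 and 0.981 CPM in HFD+Met and 5.31, 2.24, 4.38 and 3.70 CPM in Control (-2.30 ± 0.38 SE, adjusted p = 0.0121, edgeR). None of these genes had overlapping groups. The zinc importer Slc39a4 fell by 1.89, the Eph receptor Ephb6 by 1.96, the small GTPase gene Rasl11b by 2.67, the mast cell protease gene Mcpt4 by 2.12, the cation channel gene Trpm2 by 1.33 and the membrane serine protease gene Tmprss4 by 1.26 on the log2 scale. The lowest fold changes among called genes include the muscle genes Myh1, a myosin heavy chain (-9.45), and Mb, myoglobin (-2.25). Myh1 had 0, 0.0643, 0 and 0.0727 CPM in HFD+Met and 6.12, 1.53, 123 and 0.119 CPM in Control, so that Control 3 carried most of its Control level, and its call ended without that library or without any one of 11 others.

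**Figure D1:**
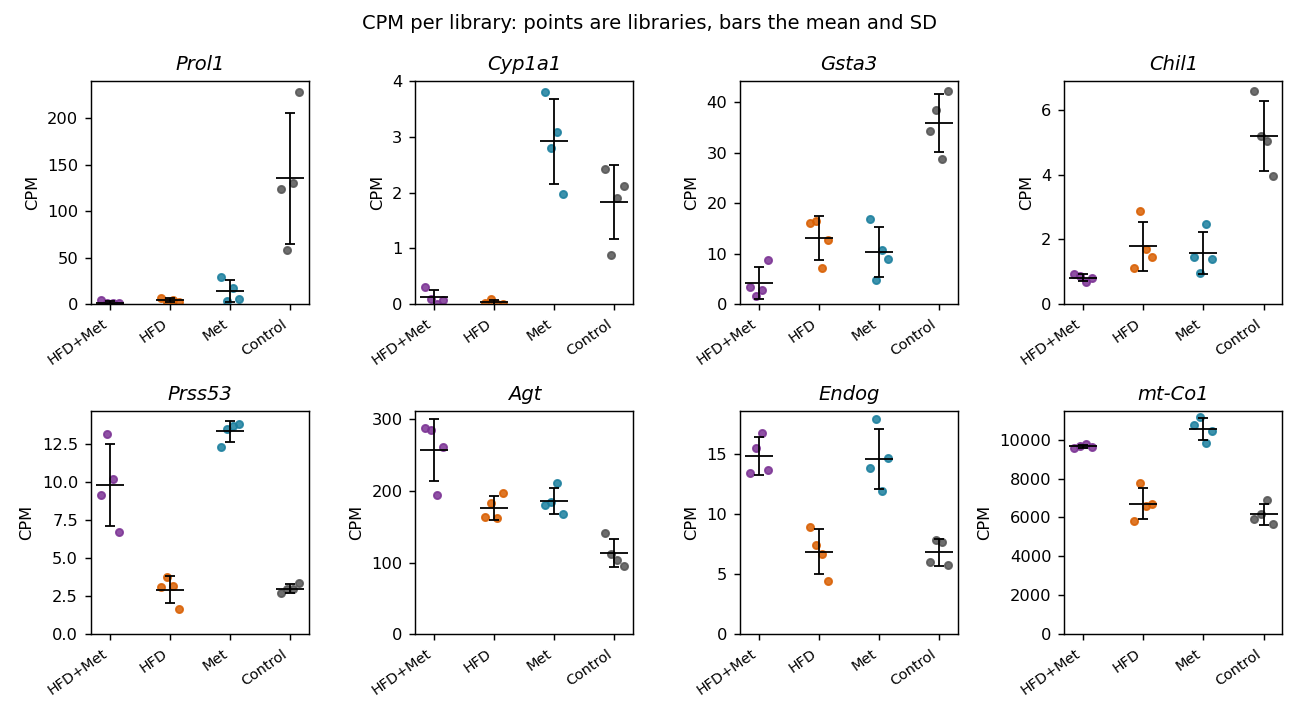
Level of 8 genes in each library, in CPM after TMM scaling, on linear axes that start at 0, for HFD+Met, HFD, Met and Control. Points are libraries, the long bar the mean and the whiskers the SD. The 4 genes of the upper row are lower in every HFD+Met library than in any Control library, and the 4 of the lower row are higher.

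Genes that were higher with both exposures included a serine protease, angiotensinogen, mitochondrial enzymes and subunits of cytochrome c oxidase. Prss53, which encodes a serine protease, had 9.15, 13.2, 10.2 and 6.69 CPM in HFD+Met and 2.68, 2.96, 2.95 and 3.40 CPM in Control. The groups did not overlap, and the log2 fold change was 1.71 ± 0.20 (SE, adjusted p = 0.000783, edgeR). Agt, angiotensinogen, the precursor of angiotensin peptides, had 288, 285, 194 and 261 CPM in HFD+Met and 141, 113, 104 and 95.3 CPM in Control (1.18 ± 0.14 SE, adjusted p = 0.000783, edgeR). Endog, a mitochondrial endonuclease, had 13.4, 15.5, 16.7 and 13.7 CPM in HFD+Met and 6.004, 7.84, 7.71 and 5.73 CPM in Control (1.12 ± 0.17 SE, adjusted p = 0.0086, edgeR). For both, the lowest HFD+Met library was above the highest Control library. On GRCm38, Agt (ENSMUSG00000031980.9) lies on chromosome 8 from 124556534 to 124569706 and Prss53 (ENSMUSG00000044139.12) on chromosome 7 from 127885841 to 127890970.

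Ptgr1, an NADPH-dependent reductase of prostaglandins and leukotriene B4, had 17.8, 23.7, 15.7 and 13.1 CPM in HFD+Met and 9.73, 7.97, 7.52 and 9.55 CPM in Control (1.01 ± 0.17 SE, adjusted p = 0.0175, edgeR). Serpina11, of the serine protease inhibitor family, had 5.77, 3.02, 8.23 and 9.30 CPM in HFD+Met and 1.59, 2.60, 2.16 and 1.25 CPM in Control (1.79 ± 0.32 SE, adjusted p = 0.0219, edgeR). Pycard, the adaptor protein of inflammasomes, had 10.2, 12.6, 15.6 and 8.72 CPM in HFD+Met and 4.59, 7.42, 5.21 and 4.92 CPM in Control (1.09 ± 0.23 SE, adjusted p = 0.0406, edgeR). None of these had overlapping groups either. Other increases on the log2 scale were 1.64 for the glycine receptor subunit gene Glrb, 1.47 for the T cell inhibitory receptor gene Lag3, 1.46 for Pcolce2, an enhancer of procollagen processing, 1.24 for Ccdc74a, 1.18 for Cpsf4l and 0.91 for Ccdc34. The increase was 0.77 for Faah, fatty acid amide hydrolase, 0.64 for the apical mucin gene Muc1 and 0.68 for Oxct1, the enzyme that starts the use of ketone bodies.

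Of 12506 tested genes, 84 were called at an adjusted p under 0.05 by edgeR's quasi-likelihood test, which is 0.672% of them, with 40 higher (0.32%) and 44 lower (0.352%). At an unadjusted p under 0.05 there were 1638 (13.1%). Of the 84 calls, 83 had no overlap between the HFD+Met and Control libraries, against 958 of all tested genes (7.66%). Scaled by library size only, the median over all tested genes was -0.23 (log2) and 465 genes passed, 15 higher and 450 lower, so the split of directions depends on the scaling. DESeq2 called 251 genes, 126 higher and 125 lower, and all 84 were among them. Fitted with the HFD+Met and Control libraries alone, 25 genes passed, 8 higher and 17 lower. Counts rebuilt from TPM gave 36 calls, with 18 in each direction. The number of calls was 14 without HFD+Met 2, 15 without HFD+Met 3, 55 without HFD+Met 1, 19 without Control 1, 40 without Control 2, 45 without Control 3 and 32 without Control 4, and 59 to 99 without any of the other libraries. Numbers in the sample titles leave several gaps, among them a gap after 10. HFD+Met 1 and Control 1, 2 and 3 came before it and the other libraries of these groups after it. The labels do not say whether it marks a batch. With a term for that gap in the fit, 68 genes passed, 34 in each direction and 51 of them among the 84.

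Under all 24 alternatives 11 genes kept their call, namely Agt, Endog, Prss53 and mt-Co1, which were higher, and Agps, Chil1, Clca3a2, Cyp1a1, Gsdma, Gsta3 and Prol1, which were lower. Without any library in turn, the log2 fold change of Prol1 stayed between -7.29 and -6.21, that of Cyp1a1 between -4.82 and -3.76, that of Gsta3 between -3.84 and -2.81 and that of Prss53 between 1.53 and 1.86. The fit of the 2 groups alone, in which 25 genes passed, ended the call of Trpm2. This gene also had no call in counts rebuilt from TPM, and was called under the other 22 of 24 alternatives. Calls of Lrg1 and Clca2 ended without HFD+Met 2 or HFD+Met 3, that of Ephb6 in the same cases and with the 2 groups alone, and that of Slc39a4 without HFD+Met 3 and with the 2 groups alone. Ptgr1 lost its call without HFD+Met 2 or Control 2, Serpina11 without HFD+Met 3, Control 1 or Control 4 and in counts rebuilt from TPM, and Cpsf4l and Ccng1 without HFD+Met 2, HFD+Met 3, Control 1 or Control 4, all 4 of them also with the 2 groups alone. The calls of the other named genes ended on leaving out from 2 to 14 single libraries, HFD+Met 2 and HFD+Met 3 among them in each case.

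Genes of mitochondrial respiration and of ribosomes had positive values throughout their lists with both exposures, though few members passed. The 13 tested mitochondrially encoded genes were all positive on the log2 scale, with a median of 0.34, and 4 rose, where 0.32% of all tested genes did. The count was 1 with library size only and 1 to 3 without single HFD+Met or Control libraries. Nuclear copies can share their reads. mt-Co1, a core subunit of cytochrome c oxidase, had 9584, 9654, 9774 and 9628 CPM in HFD+Met and 5932, 6155, 6894 and 5647 CPM in Control. The HFD+Met libraries lay close together and above all Control libraries, with a log2 fold change of 0.65 ± 0.09 (SE, adjusted p = 0.00266, edgeR). mt-Co3 rose by 0.55, and the ATP synthase subunits mt-Atp6 by 0.44 and mt-Atp8 by 0.43 on the log2 scale. All 37 nuclear genes of complex I and all 34 of complexes III to V were positive, with medians of 0.27 and 0.29, and 1 passed, the cytochrome c oxidase gene Cox6a1 (0.53). All 48 cytosolic ribosomal protein genes were positive, with a median of 0.29, and 0 of 48 passed in edgeR, with 32 at an unadjusted p under 0.05 and 5 called by DESeq2. In 29 of them every HFD+Met library lay above every Control library, against 4.25% of all tested genes in that direction. The share of all tested genes at an unadjusted p under 0.05 was 13.1%. Rps6 had 0.42 ± 0.10 and Rpl7a 0.33 ± 0.09 (SE, adjusted p = 0.0813 and 0.112, edgeR).

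Of 22 genes of the citric acid cycle and pyruvate dehydrogenase, 20 were positive (median 0.18) and 1 passed. Among 6 tested genes of ketone body metabolism (median 0.27), Oxct1 passed, with 227 to 309 CPM in HFD+Met and 159 to 181 CPM in Control, while Acat1, a thiolase, had 0.42 and Bdh1, a hydroxybutyrate dehydrogenase, 0.21, neither called. Glycolysis genes had values of both signs, with 9 positive and 8 negative values of 17 and a median of 0.05 (-0.03 to 0.17 without single libraries), and 0 of 17 passed in edgeR, with 5 at an unadjusted p under 0.05 and 2 called by DESeq2. Pkm, pyruvate kinase, had -0.58 ± 0.16 (SE, adjusted p = 0.133, edgeR). Over all tested genes the median was 0.00, 0.672% were called and 13.1% had an unadjusted p under 0.05. Scaled by library size only, with all genes at -0.23, the medians were 0.09 for the mitochondrial genome, 0.03 for complex I, 0.05 for complexes III to V, 0.05 for ribosomal proteins, 0.03 for ketone body metabolism and -0.06 for the citric acid cycle, the last with its sign turned. This scaling shifts all genes by a similar amount, so the place of a list relative to all genes could hardly change.

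Several lists had negative medians. Of all tested genes, 0.352% were called lower and 13.1% had an unadjusted p under 0.05. Antioxidant and NRF2 targets had -0.40, with 3 of 25 tested members lower (Gsta3, Hmox1 and Gclm) and Gpx1 higher. In 11 of the 25 every HFD+Met library lay below every Control library, against 3.41% of all tested genes. Involution and STAT3 targets had a median of -0.26, and -0.41 without HFD+Met 1, with Chil1, Lrg1 and Lcn2 the 3 of 28 that passed. Of 28 p53 targets (median -0.35, and -0.22 without Control 3) Ccng1, cyclin G1, passed, with 18.1, 18.4, 16.2 and 20.1 CPM in HFD+Met and 29.1, 24.4, 28.8 and 30.8 CPM in Control, groups that did not overlap. Its log2 fold change was -0.63 ± 0.12 (SE, adjusted p = 0.0219, edgeR). Immediate early genes, which are rapidly induced by stimuli, had a median of -0.50, -0.29 without Control 4, and 22 negative values, and 0 of 23 passed in edgeR, with 0 at an unadjusted p under 0.05 and 0 called by DESeq2. Of 23 cholesterol synthesis genes (median -0.20, -0.30 without Control 1 and -0.04 without Control 4) Tm7sf2, a sterol reductase, passed with -0.62. Cyp51, lanosterol demethylase, had -0.73 and Idi1, an isomerase of the pathway, -0.38, neither called. Scaled by library size only, the medians of these 5 lists were -0.64, -0.50, -0.59, -0.73 and -0.44 in the same order.

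Few genes of milk synthesis itself passed. At an unadjusted p under 0.05 the share of all tested genes was 13.1%, edgeR called 0.672% of them, and DESeq2 called 251 of 12506. The 17 milk protein genes had a median of -0.04 (-0.12 to 0.07 without single libraries), and 0 of 17 passed in edgeR, with 9 at an unadjusted p under 0.05 and 3 called by DESeq2. Csn2, beta-casein, had 0.37 ± 0.09, Csn1s1, alpha-S1-casein, 0.37 ± 0.08, Wap, whey acidic protein, 0.42 ± 0.12 and Lalba, the regulatory subunit of lactose synthase, 0.17 ± 0.14 (log2, SE), with a lowest adjusted p of 0.0581 for Csn1s1 (edgeR). Of the 17 milk protein genes 8 had positive and 9 negative values. Lpo of this list had -1.02 ± 0.24 (SE, adjusted p = 0.0637, edgeR), with groups that did not overlap. Muc1 was the 1 called gene of 15 of the milk fat globule (median 0.17), with 0 to 1 called and medians of 0.02 to 0.19 without single libraries, the lowest without Control 4. Among fatty acid synthesis genes (median 0.14) 0 of 24 passed in edgeR, with 3 at an unadjusted p under 0.05 and 3 called by DESeq2, and their median was 0.03 without HFD+Met 4, 0.06 without HFD+Met 1, 0.09 without Control 3 and -0.0019 without Control 1. Fasn, fatty acid synthase, had 0.21 ± 0.21, Acly, ATP citrate lyase, 0.27 ± 0.15 and Acss2, an acetyl-CoA synthetase, -0.42 ± 0.12. Scd1, stearoyl-CoA desaturase, had -0.28 ± 0.22. Fatty acid oxidation genes had a median of 0.08 (-0.07 to 0.15 without single libraries), and 0 of 29 passed in edgeR, with 1 at an unadjusted p under 0.05 and 0 called by DESeq2. With library size only, the median of milk protein genes was -0.27 and that of all genes -0.23. Under that scaling, milk fat globule, fatty acid synthesis and fatty acid oxidation genes had medians of -0.07, -0.10 and -0.18.

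Some lists moved with single libraries. Of all tested genes, 0.672% were called and 13.1% had an unadjusted p under 0.05. Cell cycle genes had a median of 0.77, with Mki67, a proliferation marker, at 0.98 and cyclin B1, Ccnb1, at 1.22, and 0 of 28 passed in edgeR, with 8 at an unadjusted p under 0.05 and 0 called by DESeq2. Without HFD+Met 4 the median of this list was -0.14. Mki67 had 24.6, 24.7, 44.9 and 91.0 CPM in HFD+Met and 26.9, 28.8, 23.2 and 15.5 CPM in Control, and the HFD+Met value of library 4 was the highest of all 8. Adipocyte markers had a median of -0.0006, and 0.82 without Control 3, and 0 of 22 passed in edgeR, with 2 at an unadjusted p under 0.05 and 1 called by DESeq2. Adipoq, adiponectin, had 40.7, 37.6, 9.84 and 14.7 CPM in HFD+Met and 6.84, 9.11, 75.5 and 9.10 CPM in Control, where library 3 alone lay above all HFD+Met libraries. The median of the skeletal muscle markers was -4.88, 2 of 18 being called, and it was -8.05 without HFD+Met 1 and 0.76 without Control 3. Of 18 macrophage and monocyte markers (median -0.33, and -0.15 without Control 3) 1 passed. Of 3 tested T cell markers Cd4 passed with -1.77, on 18 counts in HFD+Met against 88 in Control, and it was called in 11 of 24 alternatives. Of luminal epithelial markers (median 0.03) 0 of 17 passed in edgeR, with 4 at an unadjusted p under 0.05 and 1 called by DESeq2. Krt18, a luminal keratin, had 0.37, and the myoepithelial actin gene Acta2 had 0.35. The part of these cell types in the other results was not tested.

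**Figure D2:**
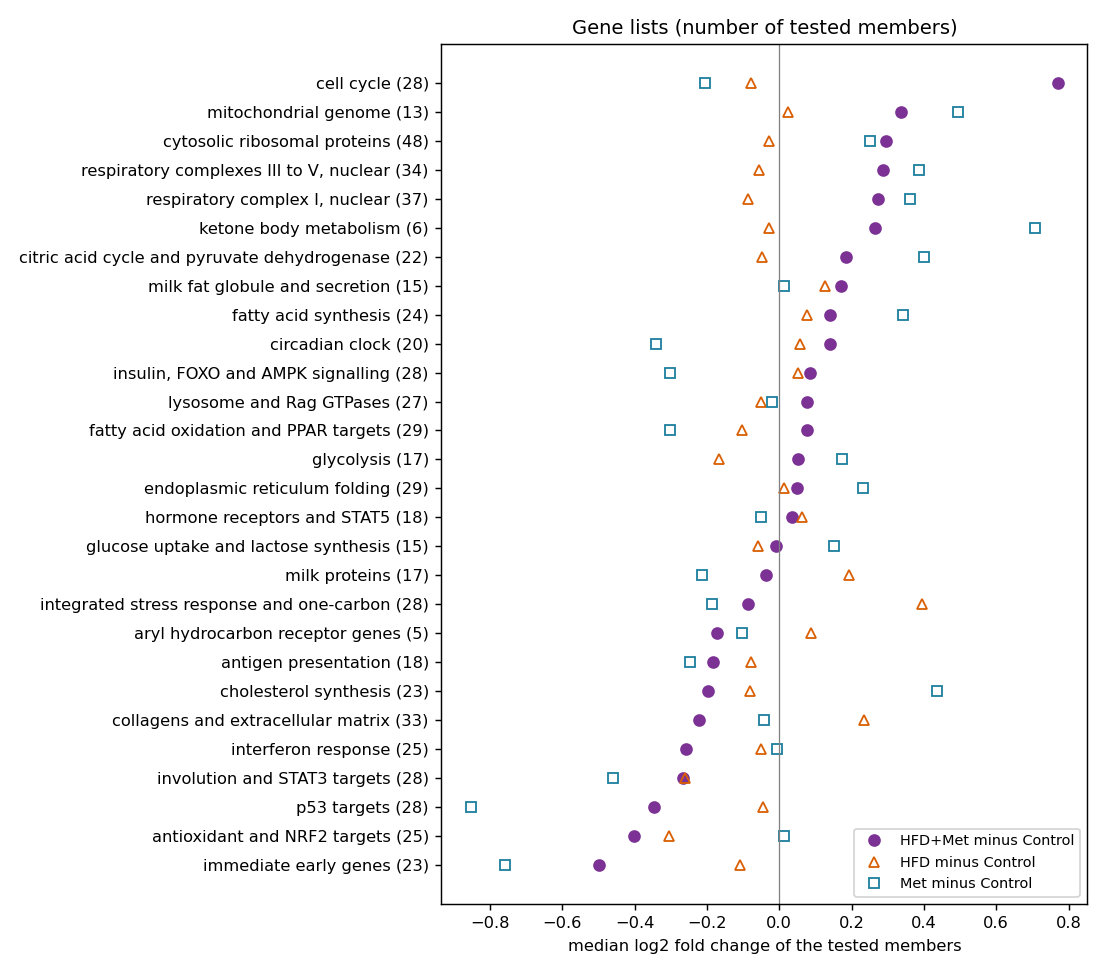
Median log2 fold change of the tested members of each gene list for HFD+Met, HFD and Met, each minus Control, with the number of tested members after the name. The lists of mitochondrial and ribosomal genes lie right of 0 in the combination and with metformin alone and near 0 with the diet alone. The position of the cell cycle list in the combination, 0.77, moves to -0.14 without HFD+Met 4.

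The second question was which combined changes equal the sum of the changes seen with each exposure alone. All of these contrasts are taken against the same 4 Control libraries, so values are given side by side. An error in the Control mean moves the combined change and both single changes the same way, and it enters the sum through both single changes. In genes chosen by their combined change, shared directions and changes smaller than the sum cannot be told apart from such an error. The combined change of a gene is called within 2-fold of the sum where the 95% interval of its departure lies between -1 and 1 on the log2 scale. Of the 84 called genes 52 met this (61.9%), 31 higher and 21 lower, which is close to the 61.7% of all tested genes that met it. The other 32 were undetermined, because their intervals crossed that bound, 23 of them lower. Genes that fell were measured less precisely, with a median interval half-width of 0.781 log2 units, against 0.425 for genes that rose. No departure passed edgeR's test over all genes (0 of 12506, 0.0%), with 1243 (9.94%) at an unadjusted p under 0.05. Of the 84 called genes 9 (10.7%) had an unadjusted p under 0.05, 7 with a combined change smaller than the sum and 2 with a larger one. A departure that misses the threshold does not show that the sum holds, and the intervals give its limits. With bounds of 0.5 on the log2 scale, 15 of the 84 genes met the criterion, and with bounds of 1.5, 69 did.

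The number of called genes within 2-fold of the sum moved where the number of calls did. It was 5 without HFD+Met 2, 7 without HFD+Met 3, 32 without HFD+Met 1, 31 without HFD 3, 26 without Met 1, 5 without Control 1, 17 without Control 2, 23 without Control 3 and 13 without Control 4. DESeq2 gave 165, scaling by library size only 344 and counts rebuilt from TPM 19.

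Each exposure alone was tested in the same fit, and of 12506 genes 8 were called in HFD minus Control (0.064%), with 2 higher (0.016%) and 6 lower (0.048%), and 881 (7.04%) had an unadjusted p under 0.05. In Met minus Control 1255 were called (10%), with 501 higher (4.01%) and 754 lower (6.03%), and 3488 (27.9%) had an unadjusted p under 0.05. In a first set of genes the combined value lay near that of metformin alone. Endog, the mitochondrial endonuclease gene, belonged to it, with 8.93, 7.47, 6.64 and 4.47 CPM in HFD and 13.8, 17.9, 11.9 and 14.7 CPM in Met. Its changes were 1.12 in the combination, 0.04 with the diet and 1.10 with metformin, and its departure was -0.02 (95% interval -0.54 to 0.50). In that order Trpm2 had -1.33, -0.21 and -1.11, with a departure of -0.01 (-0.60 to 0.59). In Oxct1 the values were 0.68, 0.08 and 0.73, with -0.13 (-0.48 to 0.23), and in mt-Co1 0.65, 0.13 and 0.78, with -0.25 (-0.52 to 0.01). Each of these genes was called with metformin alone. Prss53 had 3.08, 3.75, 3.19 and 1.67 CPM in HFD and 12.3, 13.5, 13.7 and 13.8 CPM in Met, and its departure of -0.45 (-1.04 to 0.13) ran just past the bound of 2-fold. For Ptgr1 and Pycard the diet's value was negative, -0.32 and -0.51, and metformin's 1.284 and 1.46, and the sums of 0.96 and 0.95 lay close to the combined values of 1.01 and 1.09.

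In a second set the combined value lay nearer that of the diet. Cyp1a1 had 0.0268, 0.0873, 0 and 0 CPM in HFD and 3.81, 2.81, 3.09 and 1.97 CPM in Met. It was near 0 in both groups on the diet and present in both groups on NCD, and HFD held 3 counts, 1.42% of Control after adjustment for depth (95% exact interval 0.290 to 4.19%). Such counts left the departure undetermined, at 0.92 (-1.495 to 3.34). The sodium channel gene Scnn1b had 0.51 in the combination, 0.66 with the diet and 0.03 with metformin, with a departure of -0.17 (-0.50 to 0.15). It was called with the diet alone (adjusted p = 0.0348, edgeR), and it was chosen after its values were seen. Serpina11 was also nearer the diet's value, with 1.77 there and 0.41 with metformin, though the diet's value was not called (adjusted p = 0.0604, edgeR).

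In a further set both single values had the direction of the combination, as in 75 of the 84 called genes. The shared Control libraries favour this pattern. Agt had 164, 183, 162 and 197 CPM in HFD and 179.9, 185, 210.4 and 168 CPM in Met, on average between the combination and Control. Its combined change of 1.18 compares with a sum of 1.35, from 0.64 with the diet and 0.71 with metformin, and the departure was -0.17 (-0.59 to 0.24). Agps had a combined change of -1.60 and a sum of -1.94, from -0.81 and -1.13, with a departure of 0.33 (-0.30 to 0.96). Gsta3 had 16.1, 16.5, 7.15 and 12.6 CPM in HFD and 16.8, 4.68, 10.8 and 8.96 CPM in Met. Both single groups lay between HFD+Met and Control on average, and the sum of -3.26 is near the combined -3.10, but the interval of the departure (-1.10 to 1.42) was too wide to place it within 2-fold. Chil1 had 1.13, 2.88, 1.71 and 1.45 CPM in HFD and 1.45, 0.969, 2.49 and 1.38 CPM in Met, a sum of -3.26 and a combined change of -2.68, with a departure of 0.58 (-0.33 to 1.497). Prol1 had 6.81, 2.27, 4.14 and 2.46 CPM in HFD and 28.7, 3.24, 17.4 and 5.47 CPM in Met. It was called in the combination and with each exposure, with a sum of -8.35 against a combined -6.57 and a departure of 1.78 (-0.22 to 3.77).

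Other genes were called in the combination and with neither exposure alone. Hmox1 had a combined change of -1.19, -0.40 with the diet and -0.57 with metformin, a sum of -0.96 and a departure of -0.23 (-0.97 to 0.52). Tmprss4 had -1.26, -0.56 and -0.74, with a departure of 0.04 (-0.67 to 0.74). Mcpt4 was undetermined, with an interval wholly below 0. It had 0.538, 0.450, 0.268 and 0.109 CPM in HFD+Met, 1.15, 1.92, 0.854 and 1.005 CPM in HFD, 2.40, 1.14, 0.878 and 1.15 CPM in Met and 1.299, 1.40, 1.59 and 1.46 CPM in Control. All HFD+Met libraries lay below all others, with single changes of -0.21 and -0.05 and a departure of -1.86 (-3.04 to -0.67, adjusted p = 0.369, edgeR), and it rests on 30 counts in HFD+Met against 187 in Control.

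In other genes the combined change was smaller than the sum, as in 56 of the 84 called genes, which the shared Control libraries also favour. Ephb6 had -1.96 with both, -1.39 with the diet and -1.82 with metformin, a departure of 1.25 (0.30 to 2.19). Lrg1 had -1.96, -1.54 and -1.40, a departure of 0.98 (-0.03 to 1.99). Faah had 0.77, 0.61 and 0.96, a departure of -0.79 (-1.24 to -0.35). Gclm had -0.43, -0.49 and -0.34 in the same order, and its departure of 0.40 (0.12 to 0.68) excluded 0 yet stayed within 2-fold, as in 4 of the 84 genes. The median absolute departure of the 84 called genes was 0.228 on the log2 scale, against 0.226 over all tested genes.

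**Figure D3:**
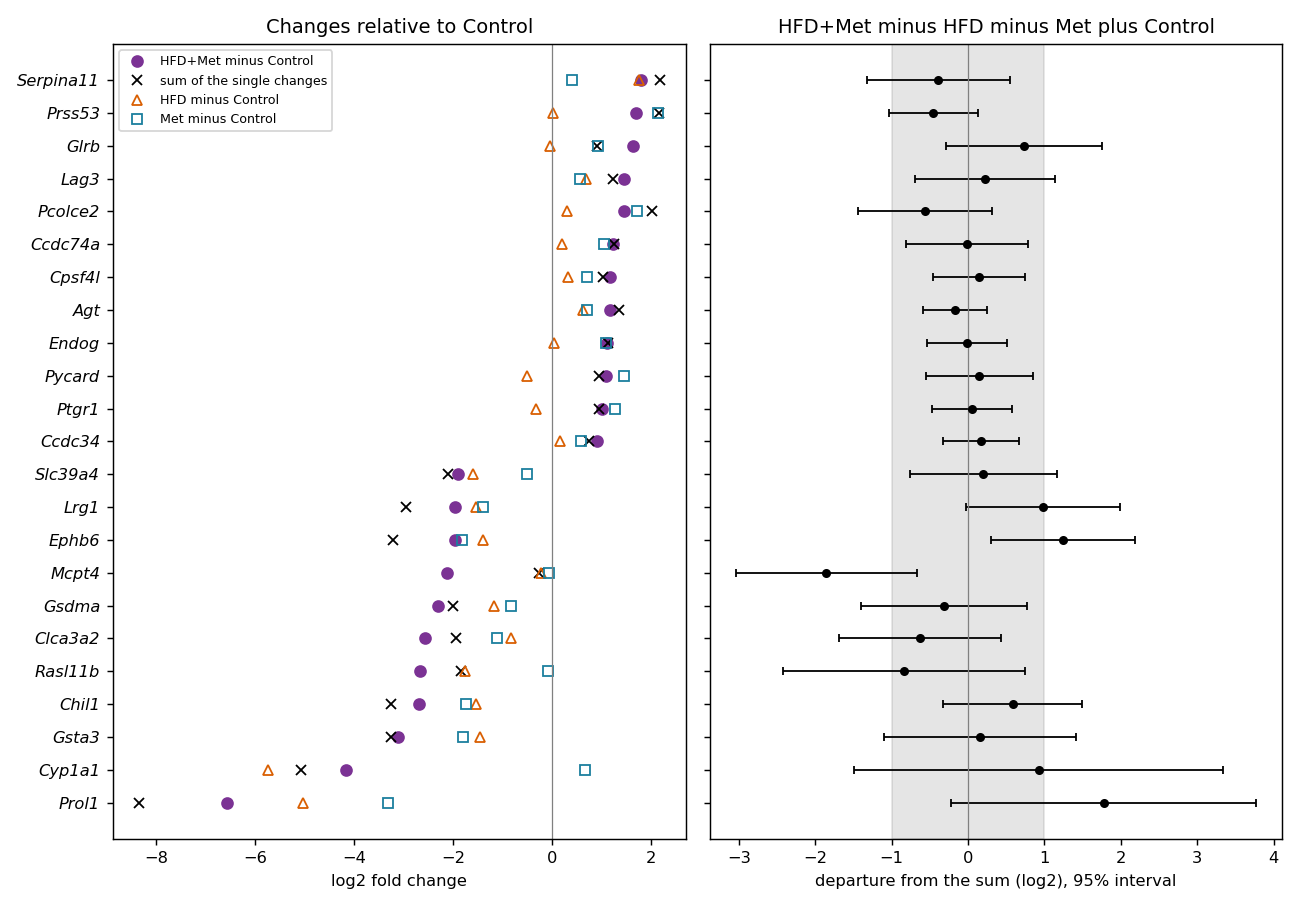
Left, log2 fold changes against Control of 23 called genes, those with the highest and lowest fold changes apart from Myh1, in HFD+Met, HFD and Met, with the sum of the HFD and Met changes as crosses. Right, the departure of the combined change from that sum with its 95% interval, on a grey band that marks 2-fold. Intervals of Agt, Endog, Ptgr1, Pycard, Ccdc74a, Cpsf4l and Ccdc34 lie inside the band, and of the 23 intervals those of Ephb6 and Mcpt4 exclude 0.

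Changes called with a single exposure were not all called in the combination. No departure of any gene passed edgeR's test (0 of 12506). An error in the Control mean moves a single change and the departure in opposite directions. In genes picked for a large single change or departure, a departure opposite to the single change cannot be told apart from such an error. Of 28 p53 targets 1 was called lower in the combination, against 0.352% of all tested genes, and 16 with metformin alone, against 6.03%, with medians of -0.35 in the combination, -0.05 with the diet and -0.85 with metformin, and a median departure of 0.45. Cdkn1a, the cyclin-dependent kinase inhibitor p21, had 8.92, 10.8, 5.41 and 8.90 CPM in HFD+Met, 26.04, 11.4, 14.04 and 17.97 CPM in HFD, 2.13, 1.27, 4.32 and 2.30 CPM in Met and 24.0, 10.9, 18.6 and 16.2 CPM in Control. The 4 Met libraries were below all others, and the combination lay between Met and Control, not called (-1.03 ± 0.32 SE, adjusted p = 0.178, edgeR), with a departure of 1.77 (0.78 to 2.76). Eda2r, the ectodysplasin A2 receptor, had 2.62, 2.89, 1.34 and 1.27 CPM in HFD+Met, 1.82, 2.40, 2.88 and 1.90 CPM in HFD, 0.419, 0.401, 0.316 and 0.493 CPM in Met and 2.11, 1.82, 2.32 and 2.48 CPM in Control. Its 4 Met libraries were below all others, with a departure of 2.23 (1.40 to 3.06). Psrc1, a microtubule-associated gene of the list, had -1.35 in the combination, -0.62 with the diet and -2.55 with metformin. Ccng1 kept part of the change, with -0.63, 0.06 and -1.15 and a departure of 0.46 (0.11 to 0.80).

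Cholesterol synthesis genes had medians of -0.20 in the combination, -0.08 with the diet and 0.44 with metformin, where 6 of 23 were called higher against 4.01% of all tested genes, and a median departure of -0.57. Cyp51 had 13.7, 14.02, 14.6 and 11.5 CPM in HFD+Met, 25.3, 20.1, 19.6 and 17.1 CPM in HFD, 30.002, 19.5, 27.9 and 27.2 CPM in Met and 16.3, 18.7, 23.9 and 30.4 CPM in Control. HFD+Met was the lowest group, below every library of the other groups, with a departure of -0.84 (-1.39 to -0.30, adjusted p = 0.369, edgeR). Idi1 and Fasn had departures of -0.76 (-1.34 to -0.18) and -0.79 (-1.43 to -0.15), each with a positive metformin change alone (0.44 and 0.63, neither called). Acly was called with metformin alone (0.62, adjusted p = 0.0211, edgeR) and had 0.27 in the combination.

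Fn1, fibronectin, had 4.999, 4.63, 6.22 and 4.54 CPM in HFD+Met, 14.5, 11.6, 18.2 and 22.2 CPM in HFD, 6.94, 5.58, 9.63 and 4.46 CPM in Met and 9.06, 6.80, 5.08 and 7.55 CPM in Control. All HFD libraries lay above all others, and the departure was -1.59 (-2.31 to -0.87), though the diet's own change was not called (adjusted p = 0.0863, edgeR). Renbp, a sialic acid pathway epimerase, was called lower with the diet alone (-1.08, adjusted p = 0.0348, edgeR), with 27.0, 24.9, 15.5 and 18.9 CPM in HFD+Met, 7.94, 8.03, 9.74 and 5.92 CPM in HFD, 20.5, 24.8, 24.2 and 22.9 CPM in Met and 18.7, 17.1, 12.8 and 19.04 CPM in Control. All HFD libraries lay below all others. Its combined change of 0.35 was not called, and the departure was 0.97 (0.45 to 1.501). Ddah1, which degrades methylated arginines, and Adig, an adipocyte gene, kept the diet's direction with 1.39 and -0.77 in the combination (adjusted p = 0.0907 and 0.0625, edgeR), against 2.04 and -1.25 with the diet, both called there.

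The lowest departure p-values over all genes were those of Mgea5, the enzyme that removes O-linked N-acetylglucosamine, with a departure of 1.10 (0.71 to 1.48), Eda2r, the nucleotidase gene Nt5c2 (0.64), Nfkbia, an inhibitor of NF-kappaB (1.18), Arhgef15, a guanine nucleotide exchange factor (-1.43), and Slc25a20, the carnitine carrier of the mitochondrion (1.14). Their adjusted p ran from 0.18 to 0.334 in edgeR, so none was called. Mgea5 had 0.09 in the combination, -0.34 with the diet and -0.67 with metformin, and Slc25a20 had 0.03, -0.34 and -0.78. DESeq2 called 22 departures, 18 positive and 4 negative, with Mgea5, Eda2r, Nfkbia, Nt5c2, Fn1, Arhgef15, Slc25a20 and Cdkn1a among them and 0 of the 84 genes called in the combination.

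**Figure D4:**
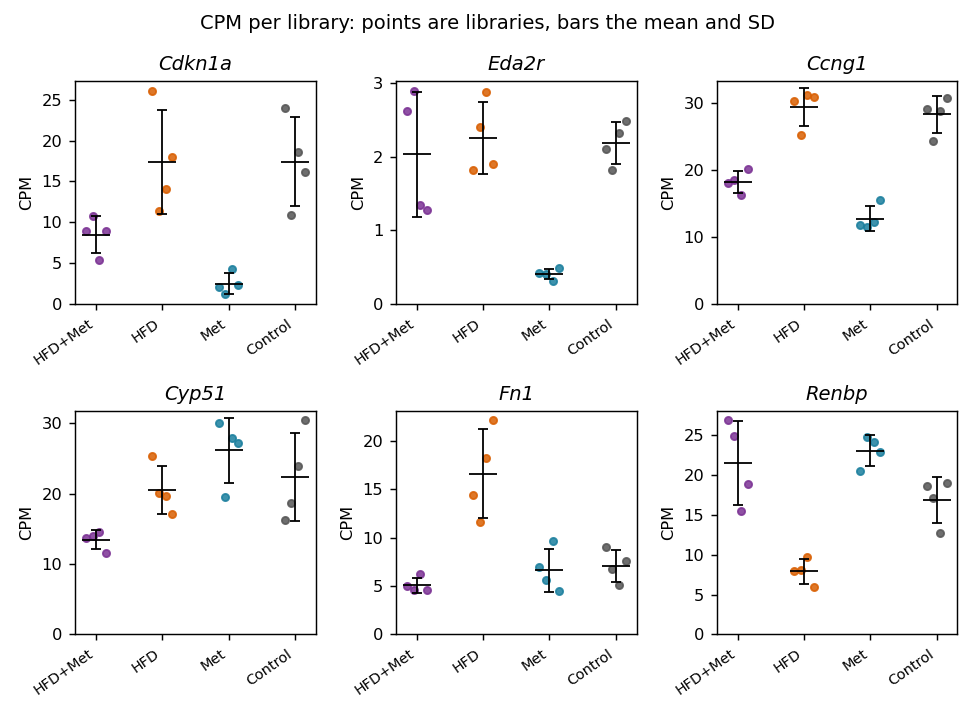
Level of 6 genes in each library, in CPM after TMM scaling, on linear axes that start at 0, for HFD+Met, HFD, Met and Control, with the mean and SD. Cdkn1a and Eda2r are low in Met and less so or not in HFD+Met, Fn1 is highest in HFD, Renbp is lowest in HFD, and Cyp51 is lowest in HFD+Met. No departure of these genes passed edgeR's test over all genes.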

How the data were processed

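RNA from 16 libraries was quantified per transcript. Each deposited file gives, per transcript, the authors' estimated count and TPM, in the columns Salmon writes per the file headers, and the authors' TPM is scaled by effective length. Salmon 1.3.0, DESeq2 1.28.1 and GRCm38.p6 are named in the submitters' processing notes without a role. Listed lengths matched coding lengths of GENCODE M21 within 3 bases for 56929 of 56929 transcripts, so reads of untranslated regions and noncoding genes are not measured. The strand setting is not given in the sources used here, and overlapping or near-identical genes can share reads.

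Estimated counts of 57452 of 58204 transcripts were summed to 22196 genes and rounded, and the 752 unmatched transcripts (0.165 to 0.218% of counts) were left out. Totals were 8649316 to 39156617 per library (median 28944266). No 2 libraries agreed within sampling noise (lowest chi-square per degree of freedom 12.54 over 120 pairs). After filterByExpr and TMM scaling, 12506 genes were fitted with 4 group means over 16 libraries by edgeR 4.0.16 quasi-likelihood (R 4.3.3), giving 12 residual degrees of freedom and two-sided tests. Calls are at a Benjamini-Hochberg adjusted p under 0.05. The departure is HFD+Met minus HFD minus Met plus Control. Its SE came from the coefficient and F, and its 95% interval from the t distribution. CPM are TMM-scaled. Counting intervals and floors of 3 counts cover counting error only. Scripts were tested on simulated data.

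Alternatives were DESeq2 1.42.0, other scalings and filters, counts rebuilt from TPM, the 2 groups alone, a term for title numbers above 10, and leaving out each library. Named genes were the 12 with the highest and 12 with the lowest fold changes among non-overlapping calls of at least 1 CPM, up to 4 per list by p, the lowest departure p-values and largest departures, and a fixed set. The members, lists and rules were chosen with earlier results of these data known. Some genes that met these rules are not reported here. Replicates are numbered in accession order.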

Additional observations from a re-analysis of the deposited data

Results flagged for a closer look

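In each group of 4 libraries, the highest or lowest library was compared with the other 3 by Dixon's criterion. Of 320 gene and group combinations, 18 stood apart, where chance gives about 1 in 20, or 16. In HFD+Met, Prol1 had 3.85 CPM in library 1 against 0.800 to 0.984 CPM in the others, Gsdma 0.313 CPM in library 3 against 0.923 to 0.981 CPM, and Ephb6 30.5 CPM in library 4 against 10.6 to 10.999 CPM. All 3 values stayed below every Control library of their gene.

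In the single exposures, HFD 2 had 25.2 CPM of Ccng1 (others 30.3 to 31.1), 49.5 CPM of Mgea5 (44.3 to 45.0) and 64.7 CPM of Nfkbia (47.9 to 48.3). HFD 4, the shallowest library, had 356 CPM of Scd1 (168 to 188). Myh1 had 1.46 CPM in HFD 3 and 0.176 CPM in Met 3. Met 3 also had 1.48 CPM of Psrc1 (0.381 to 0.568), Met 2 107 CPM of Cox6a1 (80.3 to 84.1), Met 1 17.8 CPM of Adipoq (42.0 to 46.9) and Met 4 0.657 CPM of Nqo1 (0.808 to 0.839).

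In Control, library 3 had 123 CPM of Myh1 (others 0.119 to 6.12) and 75.5 CPM of Adipoq (6.84 to 9.11), library 4 had 6.95 CPM of Slc39a4 (4.63 to 4.96) and 25.6 CPM of Clca2 (13.7 to 15.7), and library 2 had 13.3 CPM of Ccdc34 (9.85 to 10.4).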

How the results depend on the processing

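The number of calls in HFD+Met minus Control was 84, and it was 25 with the 2 groups alone, 251 by DESeq2, 36 in counts rebuilt from TPM and 465 with library size only, and 14 to 99 without single libraries. The other scaling and filter settings gave 69 to 81, and the term for title numbers above 10 gave 68. The number of called genes within 2-fold of the sum was 52, and it was 165 by DESeq2, 19 in counts rebuilt from TPM, 344 with library size only and 15 with bounds of 0.5 on the log2 scale, and 5 to 61 without single libraries. The number of called departures was 0, and it was 22 by DESeq2 and 0 to 1 without single libraries, the 1 without Control 4. For 45 named called genes, 769 of 1073 values under the alternatives kept their call, 304 lost it and 0 changed sign. Among 838 values of named genes that were not called, 27 gained a call and 26 changed sign. Departures changed sign in 88 of 1832 values and gained a call in 8. With the sum taken on the CPM scale, 18 of 70 departures moved by more than the spread between libraries, 11 changed sign and 10 more had no value. The cause was not tested. On the CPM scale the sum gave an expected level below 0 for Prol1 (-117 CPM), Ephb6 (-20.6 CPM), Gsta3 (-12.5 CPM) and Chil1 (-1.84 CPM), which no transcript can have. No paired analysis was possible because the title numbers are unique to each library and nothing else pairs libraries across groups. Depth limits genes such as Cyp1a1 and Mcpt4.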
